A study of Mus musculus with 16 samples.

Results

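The 30 genes described here carry cholesterol through its life in a cell: 8 encode enzymes of the mevalonate pathway, 11 encode enzymes from squalene to cholesterol, 5 encode SREBP2 and the proteins around it, 2 serve uptake and storage, and 4 serve efflux. They were chosen by gene symbol from the 41740 genes in the count tables. All 30 had enough reads to be tested. Total RNA had been sequenced from the whole wall of the ileum, the last segment of the small intestine, of 16 STAM mice. STAM mice are male mice made diabetic by 200 µg of streptozotocin at 2 days of age with high-fat feeding begun at 4 weeks, and they were sampled at 20 weeks. All mice carried floxed insulin receptor alleles. Control-STAM-nonINS mice (n = 4) had no Cre and no insulin. The authors state that control mice of this experiment were given normal saline. Control-STAM-INS mice (n = 6) had no Cre and received insulin degludec from 6 weeks of age, 2 injections per day at up to 12 U/kg. ieIRKO-STAM-INS mice (n = 6) received the same insulin and carried Villin-Cre, which acts in the intestinal epithelium, so muscle, immune and stromal cells of the wall kept their receptor.

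Cells make cholesterol from acetyl-CoA by way of mevalonate, and take it up as well. When sterols in the endoplasmic reticulum are scarce, SCAP escorts SREBP2 to the Golgi apparatus, where it is cleaved, and the freed fragment turns on the genes of synthesis. INSIG1 and INSIG2 hold SCAP back when sterols are plentiful. Enterocytes also absorb cholesterol from the gut lumen through NPC1L1, esterify it with SOAT2, and pump sterols back into the lumen through the pair ABCG5 and ABCG8 or out to lipoproteins through ABCA1. The efflux transporters are targets of the LXR receptors, one of which is encoded by Nr1h3.

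Promoter windows are shown for the genes whose values are given in full below and that have one: Hmgcs1 and Mvk of the mevalonate pathway, Cyp51 of the later steps, and Npc1l1 and Abcg5 of transport. Each is the RefSeq window of 300 bases in GRCm38.p6, from 250 bases before the RefSeq start of transcription to 50 after it, read 5′ to 3′ on the strand of the gene. The start in the GENCODE annotation used for gene positions was the same for Mvk and Abcg5. It lay 28 bases farther downstream for Hmgcs1 and 49 bases farther upstream for Cyp51. For Npc1l1 it lay 102 bases downstream, so by that annotation the whole Npc1l1 window is upstream of the gene. Capitals mark matches, on either strand, to TCACNCCAC (a form of the sterol regulatory element, which SREBP2 binds) and CACGTG (an E-box). They also mark CCAAT (written ATTGG where it lies on the other strand) and GGGCGG (a GC box, CCGCCC on the other strand). Sterol regulatory elements with other letters were not searched for and are not marked.
Hmgcs1, chr13:119690101-119690400, plus strand: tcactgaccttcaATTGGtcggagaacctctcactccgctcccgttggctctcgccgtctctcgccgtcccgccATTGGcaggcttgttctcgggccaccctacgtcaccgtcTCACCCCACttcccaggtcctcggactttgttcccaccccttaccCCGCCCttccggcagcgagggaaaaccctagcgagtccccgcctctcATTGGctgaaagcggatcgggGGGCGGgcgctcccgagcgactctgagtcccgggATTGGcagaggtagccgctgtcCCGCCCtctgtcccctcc
Mvk, chr5:114444019-114444318, plus strand: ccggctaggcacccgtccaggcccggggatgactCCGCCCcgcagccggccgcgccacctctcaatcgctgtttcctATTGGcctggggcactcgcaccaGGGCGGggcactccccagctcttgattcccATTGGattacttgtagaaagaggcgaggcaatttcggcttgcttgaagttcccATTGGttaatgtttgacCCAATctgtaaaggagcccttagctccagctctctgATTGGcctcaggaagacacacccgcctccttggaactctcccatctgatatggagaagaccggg
Cyp51, chr5:4104648-4104947, minus strand: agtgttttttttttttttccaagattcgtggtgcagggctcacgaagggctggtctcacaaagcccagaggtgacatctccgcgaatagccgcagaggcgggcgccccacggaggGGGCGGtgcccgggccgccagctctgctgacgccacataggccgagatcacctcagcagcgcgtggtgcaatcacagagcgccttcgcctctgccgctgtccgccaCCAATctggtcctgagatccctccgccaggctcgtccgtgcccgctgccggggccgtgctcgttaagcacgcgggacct
Npc1l1, chr11:6230196-6230495, minus strand: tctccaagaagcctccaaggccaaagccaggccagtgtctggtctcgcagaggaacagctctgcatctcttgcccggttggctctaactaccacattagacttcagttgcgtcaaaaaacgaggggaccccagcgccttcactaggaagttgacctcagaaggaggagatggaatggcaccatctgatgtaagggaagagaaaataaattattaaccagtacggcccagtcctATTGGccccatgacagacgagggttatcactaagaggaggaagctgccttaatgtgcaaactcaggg
Abcg5, chr17:84682962-84683261, minus strand: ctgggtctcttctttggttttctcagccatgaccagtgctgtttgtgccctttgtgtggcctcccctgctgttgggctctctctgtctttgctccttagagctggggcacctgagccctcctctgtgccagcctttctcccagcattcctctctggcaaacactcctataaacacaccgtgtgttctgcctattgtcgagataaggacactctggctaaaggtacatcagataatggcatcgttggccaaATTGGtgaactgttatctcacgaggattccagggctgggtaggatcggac

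The Hmgcs1 window held the searched form of the sterol regulatory element 137 bases before the RefSeq start, with 4 CCAAT boxes and 3 GC boxes around it. That of Mvk held 5 CCAAT boxes and 2 GC boxes, and that of Cyp51 a single one of each. The Npc1l1 and Abcg5 windows each held a single CCAAT box and no GC box. None of these 5 held an E-box. Windows were found for 25 of the 30 genes, and those of Fdps, Fdft1, Sqle, Stard4 and Soat2 were not found. CCAAT boxes stood in 21 of the 25 (84%), against 41.1% of 27025 genes with a window of the same length. GC boxes stood in 19 (76%) against 38.2%, E-boxes in 6 (24%) against 8.09%, and that form of the sterol regulatory element in 1 (4%) against 1.44%. A window without that form may still hold another. A match of letters is not a bound site, and no set of genes was tested for enrichment.

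Between 13288018 and 22215382 reads were counted per library. Levels are given as CPM, read counts scaled to a common library size after TMM scaling of library size, and differences as log2 fold changes from edgeR's quasi-likelihood test over 15267 genes, with Benjamini-Hochberg adjusted p-values. The targeted gene, Insr, read 88.3 to 116 CPM in Control-STAM-nonINS. The range was 49.9 to 76.1 for Control-STAM-INS and 57.5 to 90.4 for the libraries labelled ieIRKO-STAM-INS. Its count over the whole gene was thus not lower with the genotype label, and the count does not separate the floxed part from the rest. By qPCR of the ileum, the authors reported InsR mRNA to be strongly reduced in ieIRKO-STAM mice. Markers of the wall were present in every library: the summed level of 8 enterocyte markers ran from 5820 to 24300 CPM and that of 6 smooth muscle markers from 2250 to 3510 CPM. No marker on any of the lists was at 0 in any library. In whole tissue, fewer cells of a type and less RNA per cell cannot be told apart.

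Per kilobase of annotated exon, the highest mean level over all libraries belonged to Npc1l1 at 110.4 CPM per kb. Abcg5 followed at 92.1 and Hmgcs1 at 91.4, and these 2 differed by less than the spread between mice. Stard4 stood at 54.7, Abcg8 at 51.5, Idi1 at 49.9 and Cyp51 at 45.5 CPM per kb. The lowest levels per kb were those of Lss (3.94), Abca1 (4.1) and Scap (5.54). These values depend on the annotated exon length, all transcripts joined, which was 10787 bases for Lss. By CPM without that division Lss stood at 42.5, and Mvk (24.1) and Ggps1 (28.4) were lower. Genes of transport and of synthesis thus both stood among the highest of the 30.

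The first comparison asked what insulin did in the control genotype. Only Stard4 passed the test, with a higher level in treated than in untreated mice. That is 1 of 30 genes, against 10.5% of all genes tested, or 3.73% in the higher direction. Stard4 encodes a carrier that moves cholesterol between membranes and is itself an SREBP2 target. It read 252, 277, 212 and 248 CPM in the 4 Control-STAM-nonINS mice. In Control-STAM-INS the lowest, median and highest values were 292, 330 and 410 CPM. All 6 insulin-treated mice lay above all 4 untreated ones, as did 10.6% of all genes in one direction or the other. The means were 247 ± 27 (SD, n = 4) and 339 ± 44.4 CPM (SD, n = 6), a log2 fold change of 0.46 (SE 0.13, adjusted p = 0.0268 by edgeR). The exact permutation test, two-sided, returned p = 0.00476, the smallest that 4 against 6 mice allow. The adjusted p rose above 0.05 when a single library was left out, namely Control-STAM-nonINS replicate 1 (0.0663), replicate 3 (0.0888) or replicate 4 (0.0526), or Control-STAM-INS replicate 2 (0.0568) or replicate 5 (0.0511). Libraries labelled ieIRKO-STAM-INS had 311 ± 47 CPM of Stard4 (SD, n = 6), with an adjusted p of 0.701 against Control-STAM-INS by edgeR.

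None of the 8 mevalonate genes passed. Mvk encodes mevalonate kinase. It read 19.9, 15.2, 17.1 and 19.9 CPM without insulin, and in Control-STAM-INS the lowest, median and highest values were 19.2, 25.4 and 31.6 CPM. The groups overlapped at their edges, and the log2 fold change was 0.48 (SE 0.18, adjusted p = 0.0854 by edgeR). Mvk passed in 2 of 16 alternative fits, DESeq2 (adjusted p = 0.0493) and edgeR on only the 2 groups compared (0.0483). The adjusted p reached 0.207 with the replicate number as a block, where the log2 fold change was 0.31. The median log2 fold change of the 8 genes was 0.17, with 7 positive values and 1 negative. With the replicate block it was -0.011, with 4 positive and 4 negative, and without Control-STAM-INS replicate 6 it was 0.08.

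Hmgcs1, whose product makes HMG-CoA, was the highest mevalonate gene. Without insulin it read 462, 393, 425 and 252 CPM. In Control-STAM-INS the lowest, median and highest values were 327, 415 and 560 CPM. The ranges overlapped over most of their length, and the log2 fold change was 0.15 (95% interval -0.41 to 0.71, adjusted p = 0.774 by edgeR). The lowest untreated value, 252 CPM, was that of replicate 4. The other untreated mice, at 393 to 462 CPM, lay inside the treated range, so the positive value leaned on that mouse.

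From squalene to cholesterol, 0 of 11 genes passed, and their median log2 fold change was 0.02, or -0.15 with the replicate block. Cyp51, the lanosterol demethylase, led this group in level. It read 236, 210, 235 and 120 CPM without insulin, and in Control-STAM-INS the lowest, median and highest values were 161, 192 and 284 CPM. Its log2 fold change was 0.05 (95% interval -0.50 to 0.60). The nearest to the threshold was Ebp, the sterol isomerase, with a log2 fold change of 0.29 (adjusted p = 0.0797 by edgeR).

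Uptake, storage and efflux showed 0 calls among 6 genes. Npc1l1 read 381, 649, 541 and 371 CPM without insulin, and with insulin the lowest, median and highest values were 467, 534 and 615 CPM. The treated mice thus lay inside the range of the untreated ones, with a log2 fold change of 0.14 (95% interval -0.41 to 0.68). Abcg5 read 215, 300, 269 and 224 CPM without insulin. With insulin it stayed between 244 and 279 CPM, with a median of 260 and a log2 fold change of 0.05 (95% interval -0.35 to 0.46).

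Over all 30 genes the median log2 fold change was 0.10, with 21 positive and 9 negative, against a median of -0.0043 over all genes tested. That median was 0.0039 with the replicate block (15 positive and 15 negative), -0.0017 without Control-STAM-nonINS replicate 4 (14 and 16) and 0.04 without Control-STAM-INS replicate 6 (18 and 12). The 95% intervals of all 30 lay within a 2-fold change in either direction, and those of 12 lay within 1.5-fold. Only 4 of the 30 had an unadjusted p under 0.05, against 25.4% of all genes. Of the 8 enterocyte markers 1, Fabp1, was lower with insulin. Their summed level was 14800 to 24200 CPM in Control-STAM-nonINS and 11900 to 24300 in Control-STAM-INS, and their part in these values was not tested.

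**Figure D1:**
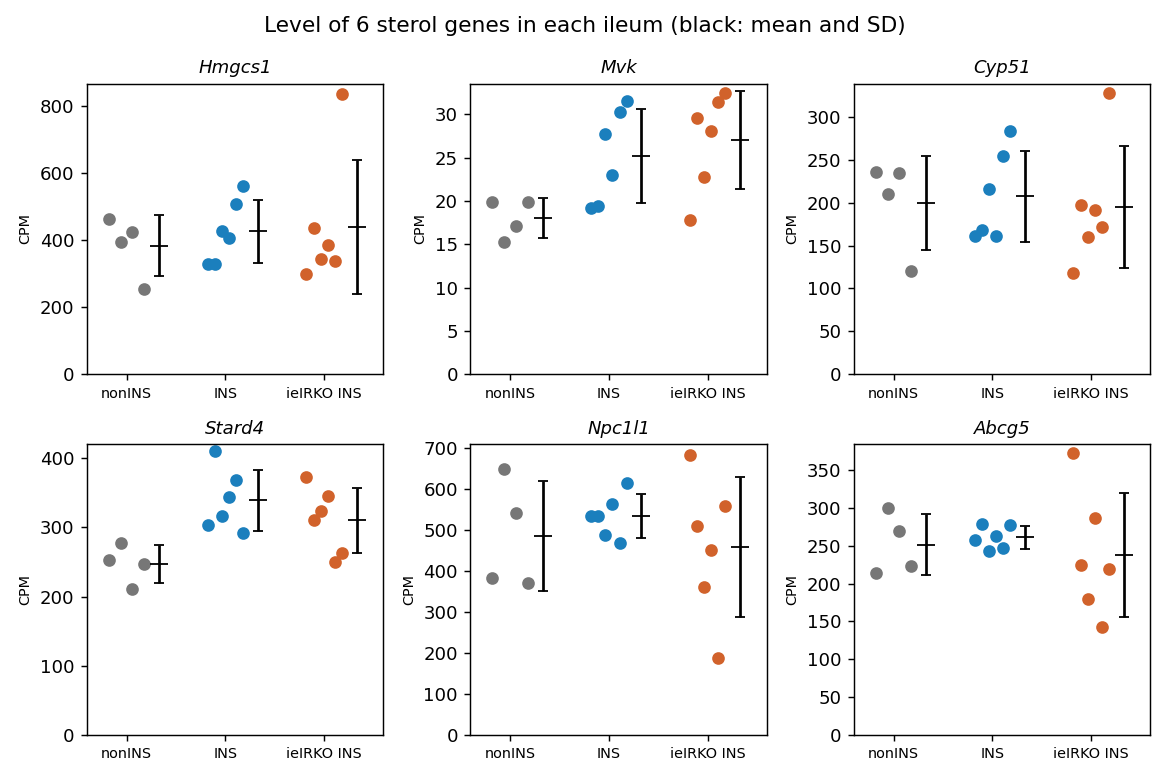
CPM (y axis, from 0) of 6 named genes in each mouse, by group (x axis, with nonINS and INS for the control genotype). Points are mice and the black bars mean and SD; for Stard4 the 6 insulin-treated control mice, from 292 CPM up, sit above the 4 untreated ones, and for Hmgcs1 a single ieIRKO-STAM-INS mouse stands at 836 CPM.

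The second comparison set the 6 libraries labelled ieIRKO-STAM-INS beside the 6 of Control-STAM-INS and asked whether the genotype label mattered under insulin. None of the 30 genes passed by edgeR's quasi-likelihood test, where 0.223% of all genes did. DESeq2 also called 0 of them, where it called 123 of 15267 genes. A single member, Tm7sf2, had an unadjusted p under 0.05, against 11.3% of all genes, and the groups overlapped for all 30, where 0.845% of all genes had groups apart. Tm7sf2 encodes a sterol reductase of the late pathway. Its lowest, median and highest values were 38.6, 44.9 and 53.8 CPM in Control-STAM-INS, and 24.1, 31.2 and 39.2 CPM in those labelled ieIRKO-STAM-INS. The groups overlapped slightly, and the log2 fold change was -0.53 (SE 0.14, adjusted p = 0.229 by edgeR and 0.0579 by DESeq2). Its annotated exons share 12.1% of their length with Vps51 on the same strand, so part of its reads may belong to that gene.

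Lss, the enzyme that closes squalene epoxide into lanosterol, had the largest positive value, a log2 fold change of 0.41 (95% interval -0.13 to 0.96). Hmgcs1 stood at 0.04 (95% interval -0.45 to 0.54). Without ieIRKO-STAM-INS replicate 6, that of Lss was 0.17 and that of Hmgcs1 was -0.24, and neither passed. All 6 genes of uptake, storage and efflux had negative values, and the largest was that of Abcg8 at -0.28 (95% interval -0.71 to 0.16). Npc1l1 stood at -0.22 and Abcg5 at -0.14. Without ieIRKO-STAM-INS replicate 5, the lowest of its group in 5 of these 6 genes, the values were -0.15 for Abcg8, -0.06 for Npc1l1 and -0.03 for Abcg5. Leaving out ieIRKO-STAM-INS replicate 1 moved them the other way. The median of the 4 efflux genes went from -0.13 to -0.25, and that of the 2 uptake and storage genes from -0.23 to -0.34. Npc1l1 had lowest, median and highest values in the libraries labelled ieIRKO-STAM-INS of 186, 480 and 683 CPM, a wider range than in Control-STAM-INS on both sides. Those of Abcg5 were 142, 222 and 373 CPM. Summed enterocyte markers ran from 5820 to 24200 CPM in these libraries and from 11900 to 24300 in Control-STAM-INS. Those of B and plasma cells did not overlap, at 1650 to 3120 CPM against 959 to 1540. The part of these markers in the result was not tested.

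The 95% intervals of all 30 genes lay within a 2-fold change, and those of 19 within 1.5-fold. Their median log2 fold change was -0.05 (11 positive and 19 negative), against 0.02 over all genes tested. It was -0.13 without ieIRKO-STAM-INS replicate 6 (4 and 26), 0.02 without Control-STAM-INS replicate 6 (17 and 13) and 0.0043 without ieIRKO-STAM-INS replicate 1 (16 and 14).

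The third comparison set ieIRKO-STAM-INS against the untreated control mice, and it shares libraries with both others. Mvk alone passed, 1 of 30 genes against 13.3% of all genes, or 5.74% in the higher direction. No member had groups that stood fully apart, against 8.56% of all genes. The libraries labelled ieIRKO-STAM-INS had lowest, median and highest values of 17.8, 28.8 and 32.5 CPM. Of these 6 mice, 5 lay above all 4 Control-STAM-nonINS mice. The means were 27 ± 5.67 (SD, n = 6) and 18 ± 2.3 CPM (SD, n = 4), a log2 fold change of 0.58 (SE 0.18, adjusted p = 0.0355 by edgeR; exact two-sided permutation p = 0.0238). The adjusted p rose above 0.05 without Control-STAM-nonINS replicate 1 (0.0641), replicate 2 (0.0847) or replicate 3 (0.0881), and without ieIRKO-STAM-INS replicate 2 (0.0556), replicate 5 (0.0649) or replicate 6 (0.0644). It was 0.0534 with only these 2 groups in the fit, and 0.0899 with the replicate number as a block, where the log2 fold change was 0.42. Of 6 B and plasma cell markers, 3 (Cd79a, Jchain and Mzb1) were higher in this comparison. Their summed level was 1650 to 3120 CPM in the libraries labelled ieIRKO-STAM-INS, 718 to 1770 in Control-STAM-nonINS and 959 to 1540 in Control-STAM-INS. Of the 8 enterocyte markers 1, Fabp1, was lower, and their summed level had a median of 13200 CPM in the libraries labelled ieIRKO-STAM-INS and 19500 in Control-STAM-nonINS. The part of these markers in the result was not tested. Stard4 stood at a log2 fold change of 0.33 here (adjusted p = 0.0851 by edgeR). It passed in 2 of 16 alternative fits (adjusted p 0.0461 to 0.224), among them edgeR with the replicate block.

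Hmgcs1 stood at a log2 fold change of 0.20 and Cyp51 at -0.04, with 95% intervals of -0.36 to 0.76 and -0.59 to 0.51. For Hmgcs1 the value was -0.09 without ieIRKO-STAM-INS replicate 6, 0.04 without Control-STAM-nonINS replicate 4 and -0.06 with the replicate block. Npc1l1 and Abcg5 stood at -0.08 each. The median of the 2 uptake and storage genes was -0.03, and that of the 4 efflux genes -0.11. Without Control-STAM-nonINS replicate 2 these medians were 0.06 and 0.01, and without ieIRKO-STAM-INS replicate 5 0.10 and 0.01. Without ieIRKO-STAM-INS replicate 1 they were -0.14 and -0.30. For 29 of the 30 genes the interval lay within a 2-fold change, the exception being Mvd at -0.05 to 1.11. The median over the 30 was 0.03, against 0.01 over all genes tested. It was -0.11 without ieIRKO-STAM-INS replicate 6, -0.06 without Control-STAM-nonINS replicate 4 and -0.08 with the replicate block. In the other direction, it was 0.11 without ieIRKO-STAM-INS replicate 1 (19 positive and 11 negative) and 0.08 without replicate 5 of that group (22 and 8). Without Control-STAM-nonINS replicate 3 it was also 0.08.

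**Figure D2:**
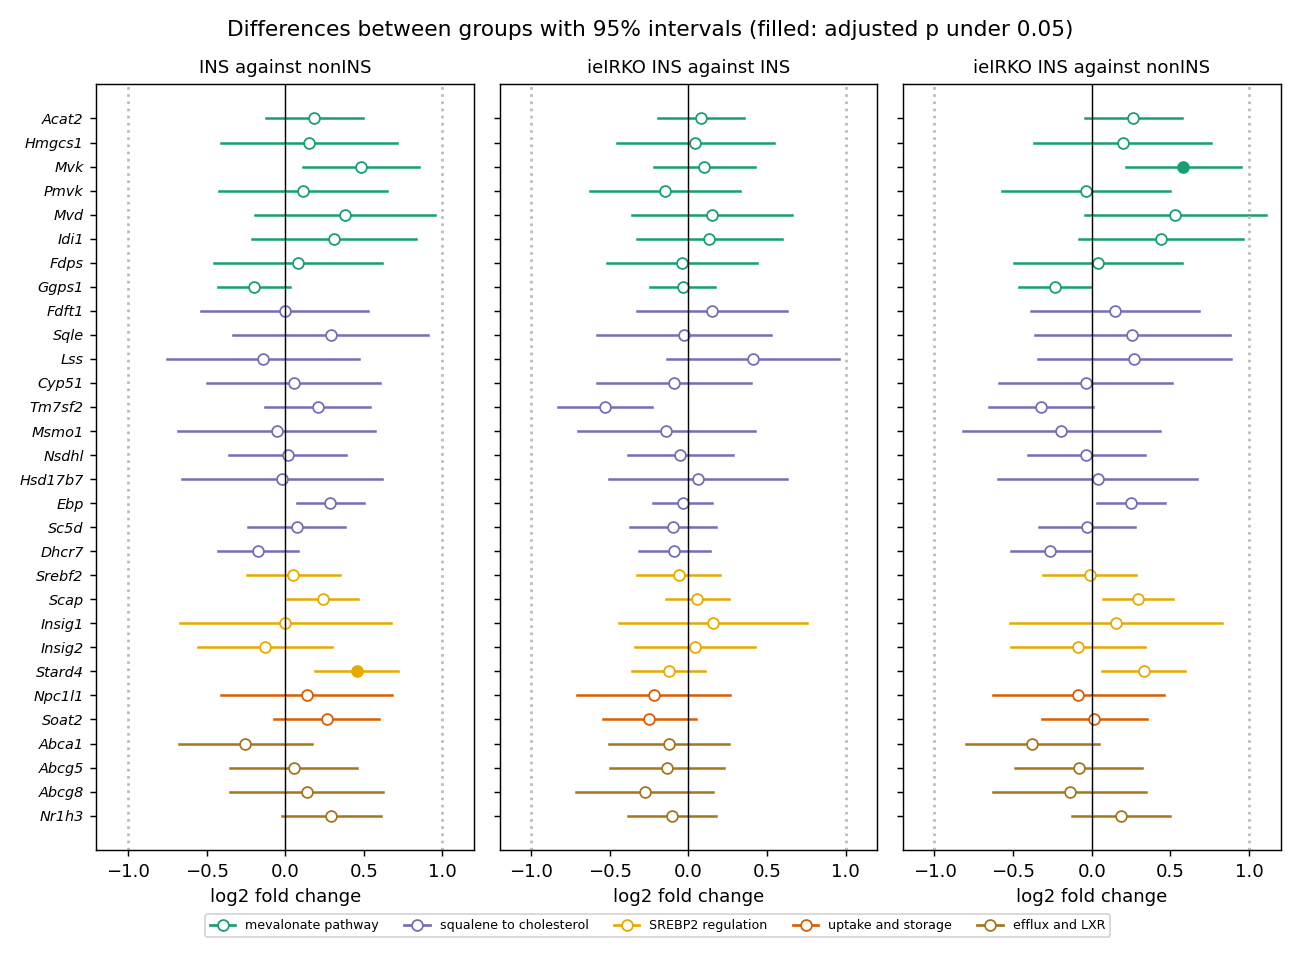
Log2 fold change (x axis) with its 95% interval for each of the 30 genes (y axis) in the 3 comparisons, coloured by role; dotted lines mark a 2-fold change and filled points an adjusted p under 0.05. Stard4 at 0.46 in the first panel and Mvk at 0.58 in the third are the only filled points.

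Beyond the members, 27 other genes of sterol handling were tested. With insulin in the control genotype 3 of the 27 fell and 0 rose, against a background of 6.76% falling. Mbtps2 encodes the second protease that frees SREBP2, and it fell from 16.4 ± 1.94 (SD, n = 4) to 11.6 ± 0.92 CPM (SD, n = 6), with a log2 fold change of -0.50 (adjusted p = 0.00612 by edgeR). Its exons share 28.4% of their length with Yy2. Stard5, another sterol carrier, had a log2 fold change of -0.62 (adjusted p = 0.0393 by edgeR), and 22% of its exon length is shared with Il16 on the other strand. For Stard5 the adjusted p was 0.182 without Control-STAM-nonINS replicate 1 and 0.132 without replicate 4, and 0.0629 to 0.0797 without Control-STAM-INS replicate 1, 2, 3, 4 or 6.

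Between the libraries labelled ieIRKO-STAM-INS and Control-STAM-INS, 0 of the 27 passed by edgeR, where 0.223% of all genes did. An unadjusted p under 0.05 was found for 3 of the 27, against 11.3% of all genes. Mbtps2 had groups that did not overlap, as did 0.845% of all genes, with a log2 fold change of 0.28 (adjusted p = 0.312 by edgeR). Against Control-STAM-nonINS, 2 of the 27 were lower, where 7.59% of all genes were.

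Individual mice of a group differed widely. Across the 6 ieIRKO-STAM-INS mice the highest value was 2.81 times the lowest for Hmgcs1, 2.84 times for Sqle, 2.91 times for Hsd17b7 and 3.16 times for Insig1. The SD of log2 CPM within groups was 0.51 for Insig1, 0.49 for Sqle and Msmo1, 0.47 for Hsd17b7 and 0.46 for Npc1l1, against a median of 0.244 over all genes tested. It was only 0.16 for Ebp and 0.17 for Scap and Ggps1. To see which genes varied together, each mouse's log2 CPM was set against the mean of its own group and these deviations were compared over the 16 libraries. This was done after the values had been seen, and the correlations describe these mice.

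ieIRKO-STAM-INS replicate 6 had the highest level of its group in 17 of the 19 synthesis genes, by a median of 0.80 in log2 over the group mean. Hmgcs1 stood at 836 CPM there and at 298 to 435 in the other 5 mice. Control-STAM-INS replicate 6 was highest in 16 of 19, by a median of 0.43. At the other end, ieIRKO-STAM-INS replicate 1 was lowest in 14 of 19 with a median of -0.47, and Control-STAM-nonINS replicate 4 in 13 of 19 with a median of -0.32. Every group has a highest and a lowest mouse for any gene. These 4 mice held the same place in their group across most of the 19 genes. Enterocyte markers summed to 13700 CPM in ieIRKO-STAM-INS replicate 6 and to 24200 in replicate 1, and to 18100 in Control-STAM-INS replicate 6 and 14800 in Control-STAM-nonINS replicate 4. B and plasma cell markers summed to 2090, 2120, 1440 and 1770 CPM in the same 4 mice. Libraries of a group were also compared in pairs over all genes, by chi-square per degree of freedom of their counts. Pairs with Control-STAM-nonINS replicate 4 stood at 68.7 to 79, and the other pairs of that group at 17.2 to 35.2. That library thus differed from its group well beyond the sterol genes.

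**Figure D3:**
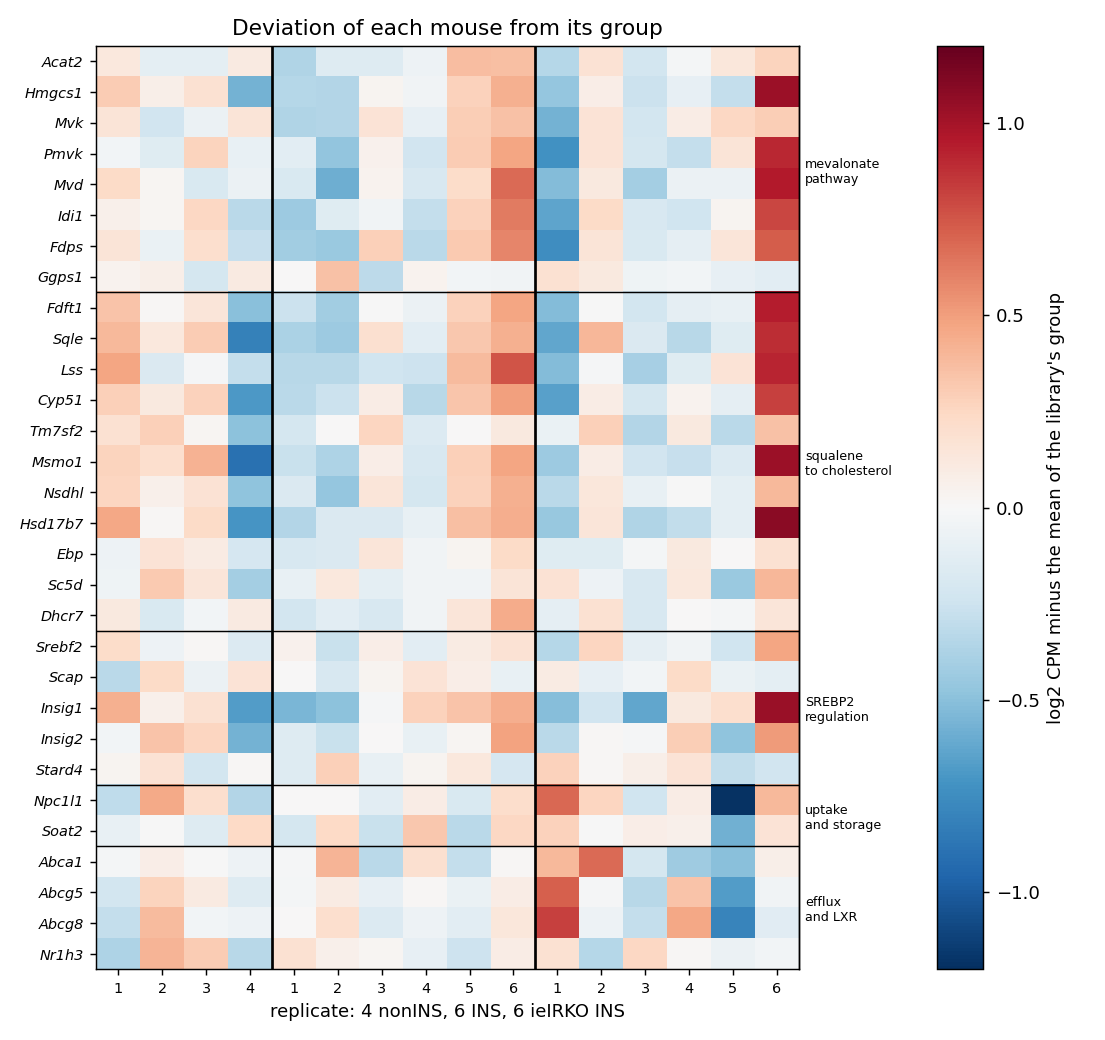
Log2 CPM minus the mean of the mouse's own group (colour) for the 30 genes (rows, by role) in the 16 mice (columns, by group and replicate number). Most synthesis rows turn red together in ieIRKO-STAM-INS replicate 6, with a median of 0.80, and blue together in replicate 1, while the uptake and efflux rows turn blue in replicate 5.

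Hmgcs1 was taken as the reference because it had the highest mean CPM of the mevalonate genes. Of the other 29 members, 14 had a correlation of at least 0.8 with it, against 0.4% of all genes (61 of 15266). They were Fdft1, Hsd17b7, Msmo1, Cyp51, Sqle, Nsdhl and Lss of the squalene branch, Idi1, Mvd, Fdps and Pmvk of the mevalonate pathway, and Insig1, Srebf2 and Insig2 of the regulators. Fdft1, which makes squalene, was closest with r = 0.983 and rho = 0.985 (n = 16, permutation within groups p = 1e-05, the smallest that 100000 permutations give, and p = 2e-05). Adjusted over all 15266 genes, these were 0.0382 and 0.0611. For Cyp51, r was 0.947 and rho 0.944 (n = 16, permutation p = 1e-05 and 5e-05, adjusted 0.0382 and 0.0954). For Srebf2, r was 0.86 and rho 0.847 (n = 16, permutation p = 6e-05 and 8e-05, adjusted 0.0833 and 0.109). Adjusted over all genes, 3 members passed 0.05 by r and 0 by rho, and 4 of all genes passed by r. With 100000 permutations the smallest p is 1e-05, so over 15266 genes a gene at that floor passes only where other genes lie near it. The number that passed, by r and by rho, thus depends on the number of permutations.

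Leaving out the 2 mice farthest from the median of Hmgcs1, ieIRKO-STAM-INS replicate 6 and Control-STAM-nonINS replicate 4, gave an r of 0.953 for Fdft1 and 0.906 for Cyp51. Of the 14 members 4 then lay under 0.8, namely Srebf2 (0.86 to 0.767), Pmvk (0.822 to 0.771), Insig1 (0.891 to 0.739) and Insig2 (0.805 to 0.649). Within the 6 Control-STAM-INS mice alone r was 0.986 for Fdft1, and within the 6 ieIRKO-STAM-INS mice 0.981 (exact permutation p = 0.00139 and 0.00556). Without the 2 farthest mice 13 members reached 0.8, against 0.19% of all genes. Within the groups of 6 mice 17 and 13 members did, against 3.31% and 3.52% of all genes.

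Several members stood apart. Ggps1, which makes geranylgeranyl diphosphate for protein prenylation and not sterols, had r = -0.431 with Hmgcs1 and rho = -0.468 (n = 16, permutation p = 0.0789 and 0.0884). Stard4 had r = -0.397 and rho = -0.326 (permutation p = 0.183 and 0.247), and Scap r = -0.329 and rho = -0.374 (permutation p = 0.234 and 0.196). Npc1l1, Soat2, Abca1, Abcg5, Abcg8 and Nr1h3 lay between -0.163 and 0.272. Dhcr7, Mvk and Acat2 had r of 0.535, 0.587 and 0.611 over all 16 mice and 0.848, 0.857 and 0.863 without the 2 farthest ones. For Sc5d r fell from 0.576 to -0.0135 without them, so that relation rested on those mice.

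Among all 15266 genes, the 10 most like Hmgcs1 by r included 7 members, namely Fdft1, Hsd17b7, Msmo1, Cyp51, Sqle, Insig1 and Idi1. The summed levels of enterocyte, crypt, smooth muscle, macrophage and B and plasma cell markers had r of -0.0373, 0.354, 0.332, -0.356 and -0.215 with Hmgcs1. Without the 2 farthest mice these were -0.336, -0.272, 0.42, 0.447 and 0.128, so 3 of the 5 changed sign. Within Control-STAM-INS the macrophage markers had r = 0.846 and the B and plasma cell markers 0.695 (n = 6, exact permutation p = 0.0569 and 0.161), and within the libraries labelled ieIRKO-STAM-INS -0.269 and -0.211. Their part in the values of the synthesis genes was not tested.

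Fdft1 shares 18.3% of its exon length with Ctsb on the other strand, and Hmgcs1 12.1% with Gm48342, also on the other strand. Fdps shares 26.7% with Gm43738 on the same strand, and Scap 13.2% with 5830462I19Rik. The library kit keeps strand, but whether the counting used it is not given in the sources used here, so reads of these pairs may have been mixed.

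In ieIRKO-STAM-INS, transport genes followed a different order of mice than synthesis genes did. The lowest of its group in all 5 of Npc1l1, Soat2, Abca1, Abcg5 and Abcg8 was ieIRKO-STAM-INS replicate 5, with 186 CPM of Npc1l1, 142 of Abcg5 and 94.6 of Abcg8. Replicate 1 of the same group was highest in 4 of the 5, with 683, 373 and 289 CPM. That mouse was the one lowest in 14 of 19 synthesis genes. In Control-STAM-INS, replicate 6, highest in 16 of 19 synthesis genes, lay above its group mean in all 5 transport genes. Replicate 5 of Control-STAM-INS, above the mean in 17 of 19 synthesis genes, lay below it in all 5. Enterocyte markers summed to 5820 CPM in ieIRKO-STAM-INS replicate 5 and to 24200 in replicate 1, the lowest and the highest of that group. Over all genes, pairs with ieIRKO-STAM-INS replicate 5 had a chi-square per degree of freedom of 44.5 to 119. The other pairs of the group stood at 20.2 to 58.1, so that library too differed beyond the sterol genes.

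Against Npc1l1, the highest of the uptake genes, 3 members reached r = 0.8, where 2.16% of all genes did. They were Abcg5 (r = 0.869, rho = 0.806, n = 16, permutation p = 0.00218 and 0.00549), Sc5d (r = 0.831, rho = 0.832, permutation p = 0.00128 and 0.00094) and Abcg8 (r = 0.817, rho = 0.688, permutation p = 0.00549 and 0.0141). None of the 29 other members passed 0.05 after adjustment over all genes, where 275 of 15266 genes (1.8%) did by r and 0 by rho. The summed enterocyte markers had r = 0.832 and rho = 0.615 with Npc1l1 (n = 16, permutation p = 0.00171 and 0.024). Without ieIRKO-STAM-INS replicates 5 and 1, the mice farthest from the median, r was 0.707 for Abcg5, 0.541 for Abcg8, 0.823 for Sc5d and 0.501 for the enterocyte markers. The count of members at 0.8 was then 1, against 0.557% of all genes. It was 2 within the 6 Control-STAM-INS mice, against 2.49% of all genes, and 4 within the 6 ieIRKO-STAM-INS mice, against 8.78%. The 4 genes most like Npc1l1 were Gm8909 (0.975), Apoa1 (0.958), Dpep1 (0.947) and Cubn (0.945). Of the 50 most alike, 0 were members and 2 were on the list of 8 enterocyte markers. The part of enterocyte content in these values was not tested.

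Abcg5 and Abcg8, whose products work only as a pair, lie head to head on chromosome 17, at 84658234 to 84683011 on the minus strand and 84676302 to 84700333 on the plus strand (GRCm38). Over the 16 mice their deviations had r = 0.977 and rho = 0.947 (n = 16, permutation p = 1e-05 each, the smallest possible). Without the 2 farthest mice r was 0.931. Their exons share 82 bases, 3.02% of the length of Abcg5.

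**Figure D4:**
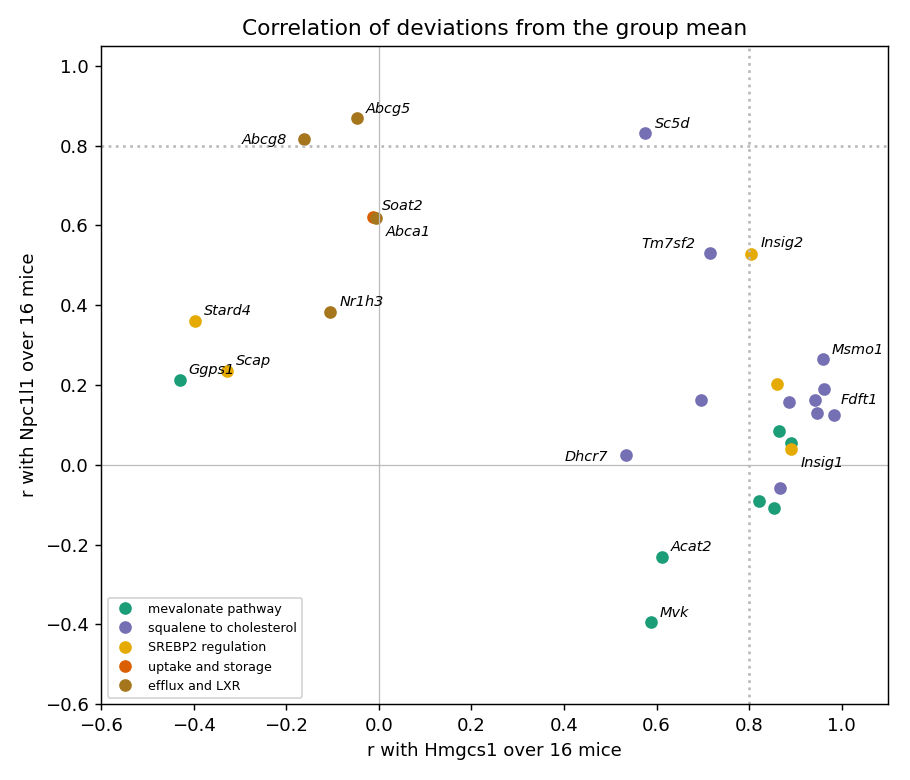
Correlation of each member's deviations with those of Hmgcs1 (x axis) and of Npc1l1 (y axis) over 16 mice, coloured by role; dotted lines mark 0.8. Synthesis genes gather at the right, with Fdft1 at 0.983, and Abcg5 and Abcg8 at the top left, at 0.869 and 0.817 on the y axis.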

How the data were processed

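Total RNA of the ileal wall was sequenced from 6 ieIRKO-STAM-INS mice, 6 of Control-STAM-INS and 4 of Control-STAM-nonINS, 1 library per mouse, with a directional kit. The authors used CLC Genomics Workbench 21.0.3 to map to GRCm38 and deposited whole-number read counts per gene, not normalized. Whether strand was used in counting is not given in the sources used here.

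Counts were tested with edgeR 4.0.16 (R 4.3.3), with filterByExpr at a minimum count of 10 and total of 15, TMM scaling and a robust quasi-likelihood fit to all 3 groups. Of 22872 genes with a count, 15267 were tested, and p-values were adjusted over them by Benjamini-Hochberg. Intervals are at 95%. Log2 CPM used a prior count of 2. Exact permutation tests on it used all 210 or 924 arrangements, the latter with a smallest p of 0.00216. Positions and exon lengths came from a GENCODE annotation of GRCm38. The method was tested on simulated data.

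The members and lists were chosen with earlier results of these data known. Values are given for members with an adjusted p under 0.05 in any comparison (Stard4, Mvk) and for the highest member of each role by mean CPM (Hmgcs1, Cyp51, Stard4, Npc1l1, Abcg5). Other members named, and all within-group correlations, were chosen after the values were seen. Of 27 further sterol genes, those with an adjusted p under 0.05 were named, except some genes that are not reported here. Marker lists (enterocytes, crypt, smooth muscle, macrophages, B and plasma cells) were summed as CPM. Alternatives were DESeq2 1.42.0, upper-quartile scaling, other filters, 2-group fits, a replicate block and leaving out each library.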

Additional observations from a re-analysis of the deposited data

Results flagged for a closer look

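In each group the highest and the lowest library of every member were set against the rest by their gap to the nearest mouse, divided by the range of the group, with Dixon's 95% limit for 4 or 6 mice. Of 90 such groups of values, 8 had a far library, and chance alone gives about 4.5. ieIRKO-STAM-INS replicate 6 was far above its group in 7 genes. The gap took 0.745 of the range for Hmgcs1 (836 CPM, the next mouse at 435), 0.69 for Mvd (94.7 against 52.9), 0.755 for Fdft1 (250 against 130 CPM), 0.641 for Lss (87.4 against 52.1), 0.751 for Msmo1 (342 against 178), 0.732 for Hsd17b7 (86.3 against 44.8) and 0.641 for Insig1 (172 against 96.8). These genes vary together, so the 7 are not independent. The other was Insig2 (87.2 against 63.5 CPM), whose highest Control-STAM-INS mouse, replicate 6, stood off by 0.669 of the range.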

How the results depend on the processing

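Of the comparisons, that of the 2 genotypes under insulin called 0 members in all 18 alternatives, where 29 to 123 of all genes passed. With insulin in the control genotype, DESeq2 and the fit of only the 2 groups compared each called 2 members, Mvk and Stard4, and leaving out single libraries gave 0 to 2. For ieIRKO-STAM-INS against untreated controls, the fit of only these groups called 0 members, where 1038 of 14992 genes passed. Leaving out single libraries gave 0 to 2 members, where 1093 to 2274 of all genes passed. Stard4 with insulin passed in 11 of 16 alternatives (adjusted p 0.006 to 0.0888) and Mvk in 2 of 16 (0.0483 to 0.207). For ieIRKO-STAM-INS against untreated controls Mvk passed in 8 of 16 (0.00884 to 0.0899). Mbtps2 with insulin passed in all 16, and Stard5 in 6. Of 1500 refitted log2 fold changes of members, 137 changed sign; none of these was called in either fit, and the largest was 0.274 in size. The cause of these changes was not tested. Over all genes, DESeq2 called 123 against 34 between the genotypes under insulin. For ieIRKO-STAM-INS against untreated controls, 1038 against 2036 passed with only these groups fitted and 1093 without Control-STAM-nonINS replicate 1. The insulin comparison fell from 1602 to 824 without that library and to 1070 without replicate 3.

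The replicate numbers of the labels are shared between groups, but over all genes same-numbered mice did not deviate together in every pair (correlations -0.0943 to 0.179 over 14 pairs), and in the insulin comparison 3 of 8 libraries correlated best with their own number. Over the 19 synthesis genes alone the correlations ran from -0.482 to 0.705, the highest for replicates 6 (0.705) and 1 (0.704) of the 2 groups given insulin. Both replicate 6 mice were high (medians 0.433 and 0.80 over the group mean) and both replicate 1 mice low (-0.267 and -0.465). With the replicate number as a block, 1 member passed in the insulin comparison, 0 between the genotypes under insulin, and 2 (Dhcr7, Stard4) between ieIRKO-STAM-INS and untreated controls, where Mvk was lost. Over all genes, in the same order, 1397, 30 and 1615 of 15267 passed with the block. In the insulin comparison the block moved Lss from -0.14 (SE 0.287) to -0.48 (SE 0.151, adjusted p = 0.0671 by edgeR) and Mvd from 0.38 (SE 0.27) to 0.12 (SE 0.163).

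Alternatives for the correlations were chosen after seeing the data. The count of members with r of at least 0.8 with Hmgcs1, 14 in all, ran from 12 to 17. That with Npc1l1, 3 in all, was 1 with library totals in place of TMM and 1 without the 2 farthest mice. With 4 untreated mice the standard errors of the insulin comparison reached 0.31, and 12 of 30 intervals lay within a 1.5-fold change.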
